A study of Mus musculus with 42 samples.

Results

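The BCL2 family genes described here were a listed set of 10: Bcl2, Bcl2l1, Mcl1, Bcl2a1b, Bcl2a1d, Bcl2l11, Bbc3, Pmaip1, Bax and Bak1. They were chosen by name and function, by a rule that names no measured value, from 54353 genes with a read count in the bulk RNA-Seq libraries, and 9 of them had a column among the 35237 genes of the single-cell matrix. The study followed uterine tissue-resident natural killer (trNK) cells of wild-type C57BL/6 female mice aged 8 to 12 weeks and asked how they differentiate during decidualization and what interleukin-21 (IL-21) and its signal transducer STAT3 contribute. Bulk RNA-Seq was made in 4 experiments with 17 groups of 2 libraries each, 34 libraries in all. No group carried a mutant allele or an in vivo treatment.

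In the gestation experiment, CD49a+CXCR6- cells within the CD45+NK1.1+NKp46+ gate came from virgin mice and from mice at gestational day (gd) 6.5 and gd8.5. In the subset experiment, the same gate at gd8.5 was split by CD55 and 4-1BB into low (trNK-V), intermediate (trNK-D) and high (trNK-T) cells. In the inhibitor culture, NK1.1+ cells grown from trNK-V of gd6.5 mice were collected alive after 72 h with no IL-21, with 20 ng/mL IL-21, or with IL-21 and the STAT3 inhibitor Stattic. The labels give its dose as 1 μM, and the study's methods give the same figure in another unit. In the time course, trNK cells of gd6.5 mice, the trNK-V subset by the study's account, were held in IL-15 with or without 20 ng/mL IL-21 for 0, 6, 24 or 72 h. A 0 h group labelled with IL-21 exists, and the sources do not say whether its cells met IL-21. IL-15, which was in all of these cultures, is itself a survival cytokine of NK cells. The labels do not say whether the libraries of a group came from separate mice, pools or cultures, so each p-value measures the spread between these libraries, which may be technical.

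Proteins of the BCL2 family decide whether the outer mitochondrial membrane stays intact. The pro-survival members BCL2, BCL-XL (gene Bcl2l1), MCL1 and A1 (genes Bcl2a1b and Bcl2a1d) bind and hold back the pore-forming effectors BAX (Bax) and BAK (Bak1). The BH3-only members BIM (Bcl2l11), PUMA (Bbc3) and NOXA (Pmaip1) occupy the pro-survival proteins when a cell is stressed or deprived of cytokine. Once BAX or BAK opens the membrane, cytochrome c leaves the mitochondria and caspases are activated. In NK cells, IL-15 is known for sustaining BCL2 and MCL1 and for restraining BIM, and loss of Mcl1 is lethal to them.

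The upstream sequences of 3 members are shown, because Bcl2 carried most of the differences below and because the A1 genes are near-identical copies whose reads are hard to separate. The bases before the RefSeq start of Bcl2 lie at chr1:106714291-106714540 on the minus strand of GRCm38.p6, outside the exons of the gene model, and capitals mark the only match to TGACGT, the core letters of a cyclic AMP response element.

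Bcl2: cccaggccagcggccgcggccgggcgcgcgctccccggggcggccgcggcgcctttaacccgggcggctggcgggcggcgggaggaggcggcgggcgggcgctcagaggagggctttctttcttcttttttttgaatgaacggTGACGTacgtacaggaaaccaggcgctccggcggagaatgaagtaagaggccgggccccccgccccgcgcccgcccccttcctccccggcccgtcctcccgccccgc

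This window is 74.8% G and C. The letters TTCNNNGAA, the usual STAT motif, and TTCNNNNGAA, the form with 1 more spacer base, were searched on both strands in 14 promoter windows of 9 members, all but Pmaip1. Neither was found in any of the 14, while 7.02% and 5.854% of all 32851 RefSeq promoter windows of this length held them. TGACGT was found in the Bcl2 window alone among the 14 and in 6.469% of all windows. A match is a description of letters and no match says only that these letters are not in this window.

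The stretches just upstream of the 2 A1 genes lie at chr9:89199023-89199164 (plus strand) for Bcl2a1b and at chr9:88731915-88732050 (minus strand) for Bcl2a1d. Capitals mark the bases at which they differ.

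Bcl2a1b: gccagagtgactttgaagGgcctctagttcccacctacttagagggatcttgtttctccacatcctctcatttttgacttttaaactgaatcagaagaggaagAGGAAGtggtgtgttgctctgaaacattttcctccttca

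Bcl2a1d: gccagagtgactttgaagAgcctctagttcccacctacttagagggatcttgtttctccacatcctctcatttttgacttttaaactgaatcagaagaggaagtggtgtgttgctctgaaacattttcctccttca

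Of these bases 135 are alike, 1 is substituted, and 6 of Bcl2a1b are missing in Bcl2a1d. The coding sequences are 519 bases each and differ at 6. Of the 50-base windows of exon sequence, 57.552% in Bcl2a1b and 79.484% in Bcl2a1d also occur in another A1 copy, and of the 150-base windows, the length of the reads in the study's methods, 14.222% and 30.252% do, so the division of reads between Bcl2a1b and Bcl2a1d is uncertain in part wherever they are named.

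Levels are given as RPKM, read counts scaled to exon length and to the total count of the library. Where groups of 2 libraries are said not to overlap, the share of all genes with no overlap was not counted. With so few libraries, genes that do not differ can also show no overlap, so it is a description and not a test. Total counts ran from 11862089 to 29537298 in the gestation, subset and inhibitor culture libraries and from 28541369 to 66468883 in the time course. All 6 trNK markers checked (Ncr1, Klrb1c, Eomes, Itga1, Gzmc and Klrd1) were above 0 in each of the 34 libraries. Of the genes tested, the share more than 2-fold apart between the libraries of a group was 10.346% for virgin mice, 28.633% at 72 h without IL-21 and 29.832% at 72 h with IL-21, against 1.256% to 16.015% in the other groups. Macrophage transcripts varied within the trNK-V group, where summed macrophage marker levels were 48.4 and 294 RPKM.

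**Figure D1:**
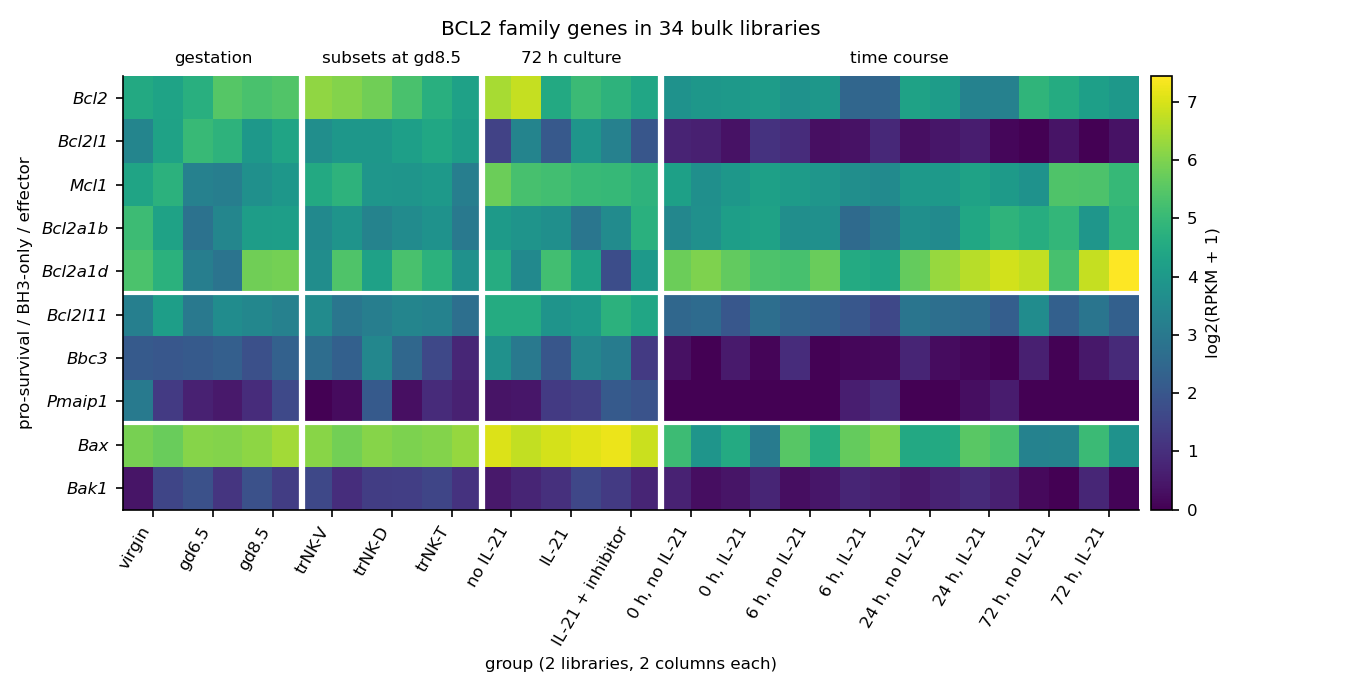
Levels of the 10 members (rows, by role) in each of the 34 bulk libraries (columns, by experiment and group), as log2(RPKM + 1). Levels are to be compared within an experiment, since the library kits differed. Within the inhibitor culture Bcl2 is highest without IL-21, and within the time course it is lowest at 6 h with IL-21. Bbc3, Pmaip1 and Bak1 are low in most columns.

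Across all libraries, the effector Bax (chr7:45461697-45466898, minus strand) and the pro-survival genes Bcl2 (chr1:106538178-106714274, minus strand), Mcl1 (chr3:95658788-95663176, plus strand) and Bcl2a1d (chr9:88723285-88731914, minus strand) carried most of the family's transcripts. Bax ranged from 7.542 to 149.1 RPKM, and Bcl2 ranged from 4.329 to 110.4 RPKM. Which pro-survival gene led depended on the experiment. Bcl2 had the highest level of the 5 in 5 of the 6 subset libraries and in 3 of the 6 inhibitor culture libraries, where Mcl1 led in the other 3. Bcl2a1d led in 15 of the 16 time course libraries. The library kit differed between the time course and the other experiments, so the comparisons below are made within an experiment.

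Mcl1 and A1 transcripts were lower in the gd6.5 libraries than in those of virgin mice. Mcl1, on whose short-lived protein NK cells depend, was at 19.12 and 26.67 RPKM in virgin mice, at 8.706 and 8.163 RPKM at gd6.5, and at 12.33 and 14.25 RPKM at gd8.5. The gd6.5 libraries lay below all other libraries of this experiment. Mcl1 fell by 1.52 on the log2 scale from virgin to gd6.5 (SE 0.248, adjusted p = 0.0309, edgeR quasi-likelihood test with Benjamini-Hochberg adjustment over all 4504 genes tested). Bcl2a1d was at 39.36 and 25.74 RPKM in virgin mice, at 8.086 and 6.275 RPKM at gd6.5 and at 55.39 and 57.72 RPKM at gd8.5, so the 3 groups did not overlap. It fell by 2.26 from virgin to gd6.5 (log2, SE 0.32, edgeR adjusted p = 0.0289). Bcl2a1b (chr9:89199209-89207827, plus strand) was at 33.09 and 18.51 RPKM, then at 5.963 and 9.721 RPKM, then at 16.81 and 17.07 RPKM, and fell by 1.80 from virgin to gd6.5 (log2, SE 0.417, edgeR adjusted p = 0.0482).

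These were 3 of the 6 members tested in the gestation libraries, where 6.22% of all genes passed the same call, an adjusted p under 0.05 with a change of more than 2-fold. In bulk libraries, fewer cells of a type and less RNA per cell cannot be told apart. With all libraries kept, none of the 3 calls held in edgeR with a wider filter on low counts (filterByExpr, adjusted p = 0.0785 to 0.126). None held with a replicate block either (edgeR adjusted p = 0.0611 to 0.0968). All 3 calls were lost when either gd6.5 library was left out, with edgeR adjusted p-values of 0.139 to 0.313, and the Bcl2a1b call was also lost without virgin replicate 1 (log2 change -1.31, edgeR adjusted p = 0.0617). Markers of other cells moved with this contrast too. Summed macrophage markers were at 20.06 and 29.28 RPKM in virgin mice and at 10.09 and 10.88 RPKM at gd6.5, and summed type 1 innate lymphoid cell (ILC1) markers, of which trNK cells share Ncr1 and Klrb1c, were at 1370 and 1247 RPKM and at 749.3 and 749.9 RPKM. Summed markers of conventional NK (cNK) cells, of which trNK cells share Ncr1, Klrb1c and Eomes, were at 2387 and 2146 RPKM and at 1302 and 1957 RPKM. The study also reports that Tbx21, in the ILC1 list, and Itgam, in the cNK list, fall as trNK cells differentiate. Neither sum is therefore a level of other cells alone. Between the same groups, summed T cell markers overlapped, as they were at 273.8 and 47.1 RPKM in virgin mice and at 60.98 and 36.71 RPKM at gd6.5, and summed B cell markers were at 469.9 and 224.1 RPKM and at 140.5 and 247 RPKM. Their part in the result was not tested.

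Bcl2 itself was at 21.84 and 18.96 RPKM in virgin mice, at 25.08 and 43.41 RPKM at gd6.5 and at 38.60 and 41.53 RPKM at gd8.5. The virgin libraries were the lowest, but the gd6.5 and gd8.5 groups overlapped. The log2 difference from virgin was 0.67 at gd6.5 (SE 0.264, edgeR adjusted p = 0.142) and 0.91 at gd8.5 (edgeR adjusted p = 0.236). At gd8.5, no member passed against virgin mice, where 0.377% of genes did. Between gd8.5 and gd6.5 no gene of those tested passed in edgeR, although 1062 had an unadjusted p under 0.05 and DESeq2 called 221. The log2 difference of Bcl2a1d there was 2.99 (SE 0.329, edgeR adjusted p = 0.0919), which DESeq2 called (adjusted p = 1.39e-14). Bcl2l1 (chr2:152780668-152831728, minus strand) had its highest values at gd6.5, 31.38 and 27.02 RPKM, against 9.356 and 18.40 RPKM in virgin mice and 14.70 and 19.20 RPKM at gd8.5. Its difference from virgin was 0.99 (log2, SE 0.34, edgeR adjusted p = 0.106), and 1.62 without virgin replicate 2 (adjusted p = 0.00436). Bcl2l11 was between 7.019 and 17.04 RPKM and did not pass the filter, and Bax stayed between 52.78 and 83.07 RPKM in all 6 libraries.

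**Figure D2:**
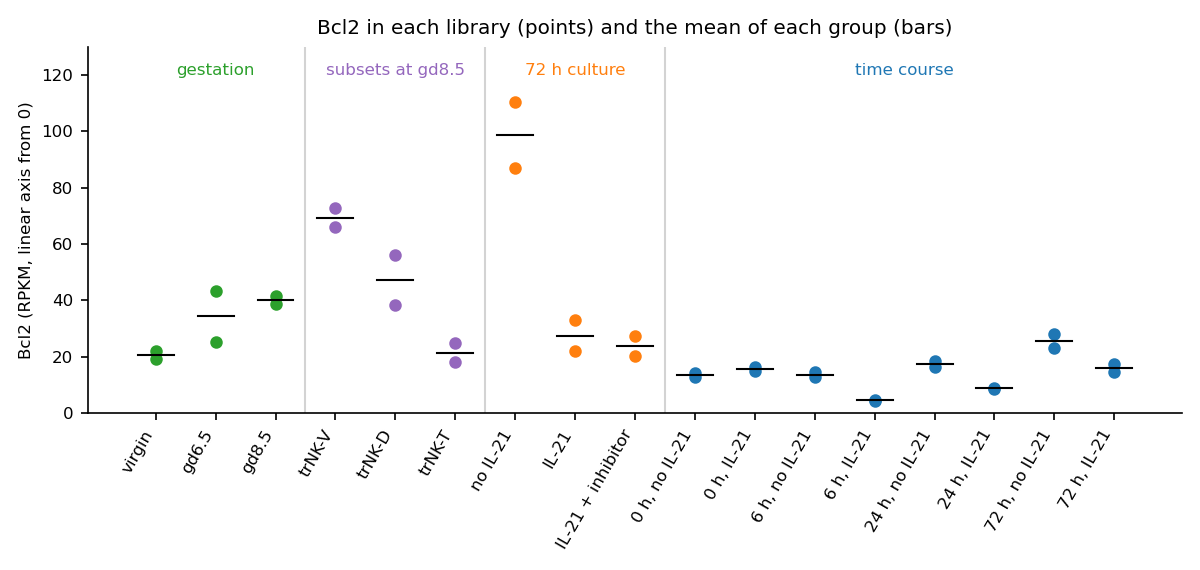
Bcl2 level in RPKM for each library (points) and the mean of the 2 libraries of each group (bars), by experiment. Within its experiment, the level steps down from trNK-V to trNK-T, is highest without IL-21 in the inhibitor culture, and is lower with IL-21 than without it at 6, 24 and 72 h.

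At gd8.5, Bcl2 followed the order of the sorted subsets. It was at 72.84 and 65.98 RPKM in trNK-V, at 56.13 and 38.36 RPKM in trNK-D and at 24.68 and 18.17 RPKM in trNK-T, with no overlap between any of the 3 groups. Bcl2 fell by 1.69 on the log2 scale from trNK-V to trNK-T (SE 0.239, 95% interval -2.26 to -1.12, edgeR adjusted p = 0.00524). The neighbouring steps did not pass in the reported fit. The log2 difference was -0.55 from trNK-V to trNK-D (edgeR adjusted p = 0.253) and -1.15 from trNK-D to trNK-T (SE 0.236, edgeR adjusted p = 0.0675). The step from trNK-D to trNK-T was called by DESeq2 (log2 -1.13, adjusted p = 0.000331) and by edgeR with a replicate block (log2 -1.14, adjusted p = 0.0344). The background was wide in the first of these contrasts, since 21.2% of the 4683 genes tested were called between trNK-T and trNK-V, against 0.32% between trNK-D and trNK-V and 1.75% between trNK-T and trNK-D.

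Mcl1 was the other of the 6 members tested that passed between trNK-T and trNK-V. It was at 22.01 and 26.86 RPKM in trNK-V, at 13.92 and 13.83 RPKM in trNK-D and at 15.18 and 8.140 RPKM in trNK-T, where the last 2 groups overlapped. It fell by 1.06 (log2, SE 0.329, edgeR adjusted p = 0.0456), and the call was lost without trNK-V replicate 1 (adjusted p = 0.0925), trNK-V replicate 2 (0.193) or trNK-T replicate 2 (0.179). The Bcl2 call held in each such refit, with a log2 difference between -1.95 and -1.50. Macrophage marker sums were 48.4 and 294 RPKM in trNK-V, 261.5 and 352.3 RPKM in trNK-D and 18.18 and 14.88 RPKM in trNK-T, mostly Lyz2, while Csf1r was at 0 in trNK-V replicate 1 and in both trNK-T libraries. Without trNK-V replicate 2, the library with the higher sum, the Bcl2 difference was -1.67. The trNK-V library left in that fit still had a macrophage sum above those of trNK-T, so the fit does not test the part of macrophage RNA. The T cell, ILC1 and cNK marker sums stepped down in the order of Bcl2. T cell markers were at 164.7 and 160.9 RPKM in trNK-V, at 58.65 and 88.85 RPKM in trNK-D and at 32.66 and 27.96 RPKM in trNK-T. ILC1 markers were at 1459 and 1498, 1199 and 1015, and 783 and 620.4 RPKM. Markers of cNK cells, which share Ncr1, Klrb1c and Eomes with trNK cells, were at 2816 and 3769, 2063 and 1873, and 1091 and 984.1 RPKM. With Tbx21 in the ILC1 list and Itgam in the cNK list, both reported to fall along trNK differentiation, these sums are not levels of other cells alone. Stromal markers were at 51.86 and 4.574 RPKM in trNK-V, at 4.775 and 2.114 RPKM in trNK-D and at 0.5127 and 0.6799 RPKM in trNK-T, with trNK-V replicate 1 apart from the rest and replicate 2 within the range of trNK-D. Their part in the Bcl2 difference was not tested.

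Other pro-survival genes did not pass in these subsets. Bcl2l1 lay between 11.91 and 20.50 RPKM, and its log2 difference between trNK-T and trNK-V was 0.50 (edgeR adjusted p = 0.132). Bcl2a1b lay between 7.017 and 13.42 RPKM, while Bcl2a1d was at 11.49 and 40.68 RPKM within trNK-V alone. Bcl2l11 was at 8.137 and 9.405 RPKM in trNK-D and at 8.852 and 5.555 RPKM in trNK-T, and was not tested. The effector Bax was at 68.34 and 56.89 RPKM in trNK-V and at 65.35 and 75.27 RPKM in trNK-T, a log2 difference of 0.17 (edgeR adjusted p = 0.461). The ratio of Bcl2 to Bax RPKM was therefore 1.066 and 1.16 in trNK-V and 0.3776 and 0.2415 in trNK-T. Bcl2 made up 56.55% and 40.91% of the summed pro-survival RPKM in trNK-V and 24.80% and 29.06% in trNK-T.

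**Figure D3:**
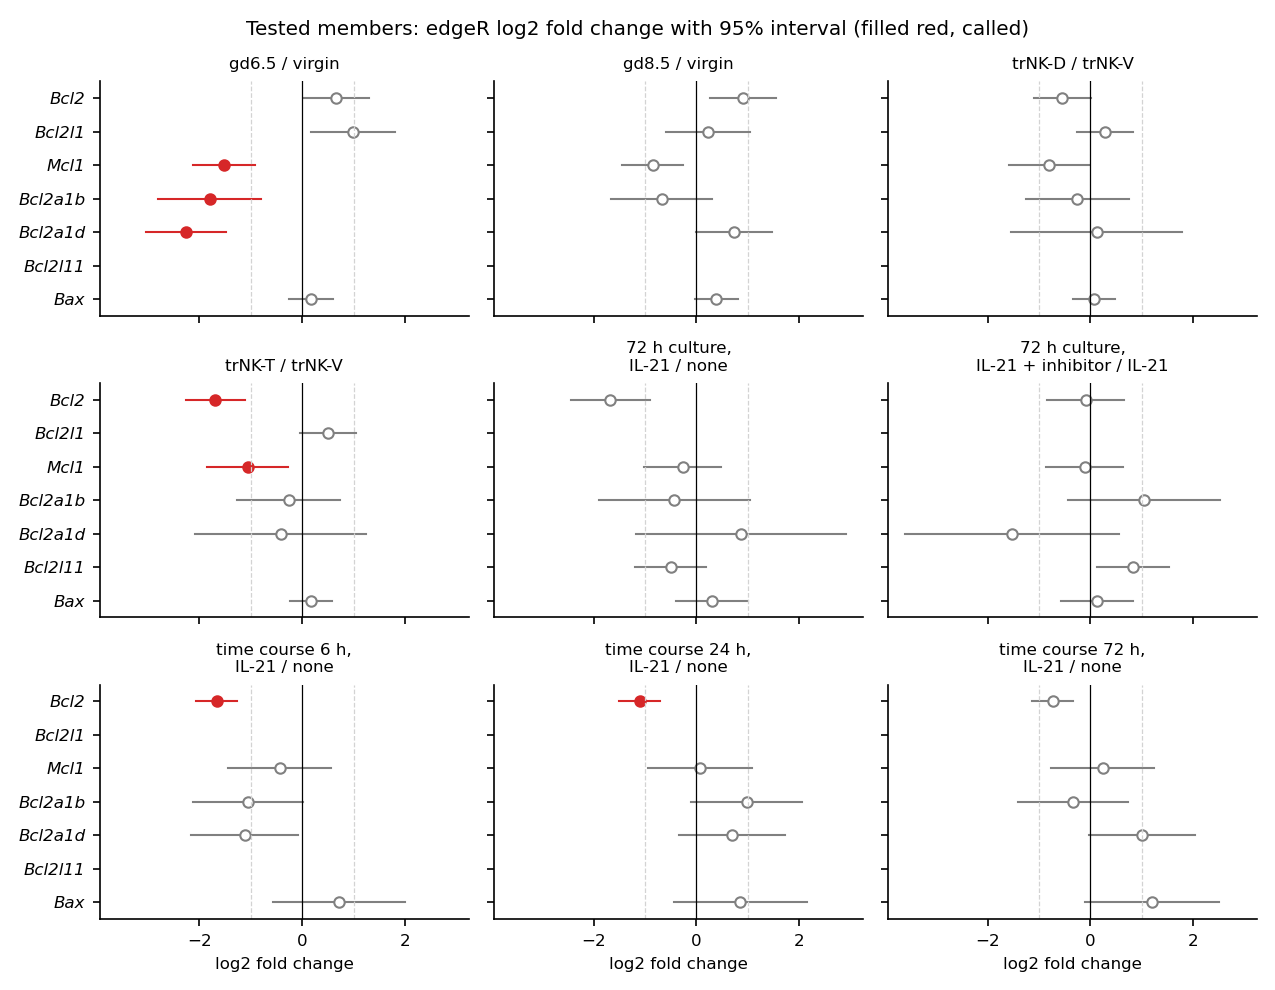
Log2 difference of each tested member (points) with its 95% interval (lines) from the edgeR fit, by comparison. Filled red points passed the call and dashed lines mark a 2-fold change. The Bcl2 intervals lie below 0 for trNK-T against trNK-V and for IL-21 in the inhibitor culture and at 6, 24 and 72 h.

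In the inhibitor culture, Bcl2 was at 87.18 and 110.4 RPKM without IL-21, at 21.84 and 32.91 RPKM with IL-21, and at 27.32 and 20.33 RPKM with IL-21 and Stattic. Both IL-21 groups lay far below the group without it and overlapped each other. The log2 difference for IL-21 against no IL-21 was -1.68 (SE 0.331, 95% interval -2.44 to -0.91), with an edgeR adjusted p of 0.0921, and no member passed where 0.289% of the 4158 genes tested did. DESeq2 called it (log2 difference -1.65, adjusted p = 0.000413). Summed ILC1 markers went the same way, at 1156 and 960.8 RPKM without IL-21, 361.1 and 458.9 RPKM with it and 241.7 and 266.8 RPKM with the inhibitor, as did cNK markers, at 3734 and 3307, 2604 and 1862, and 2034 and 2453 RPKM, and B cell markers, at 136 and 256.6, 46.44 and 120.1, and 65.27 and 53.77 RPKM. The ILC1 and cNK lists hold genes that trNK cells express, so these sums are not levels of other cells alone. Their part in the result was not tested. With the inhibitor, Bcl2 fell by 1.77 against no IL-21 (log2, SE 0.332, edgeR adjusted p = 0.0283), 1 member of 6 where 4.74% of genes passed, and this call was lost whichever library of the 2 groups was left out (adjusted p = 0.0911 to 0.153).

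Bcl2 with Stattic was not distinguishable from Bcl2 with IL-21 alone at the precision of this culture. The difference between IL-21 with and without it was -0.09 (log2, SE 0.323, 95% interval -0.84 to 0.66, edgeR adjusted p = 0.923). No member passed in that contrast, in which 2.96% of genes did. Bcl2l11 (chr2:128126038-128162547, plus strand), whose product BIM sets the death of lymphocytes deprived of cytokine, was at 23.00 and 22.86 RPKM without IL-21, at 13.43 and 15.13 RPKM with it and at 26.70 and 20.18 RPKM with the inhibitor. The IL-21 group was the lowest and did not overlap the others, but its differences did not pass (-0.50 against no IL-21, edgeR adjusted p = 0.744, and 0.82 for the inhibitor against IL-21, SE 0.302, edgeR adjusted p = 0.195). Bcl2a1d was at 23.54 and 10.56 RPKM, at 35.27 and 18.65 RPKM, and at 2.354 and 15.24 RPKM in the same order, so the group with IL-21 alone lay above that with the inhibitor, and the group without IL-21 overlapped both. The log2 difference of -1.53 for the inhibitor against IL-21 did not pass (edgeR adjusted p = 0.407). Mcl1 was at 53.92 and 37.49 RPKM, at 35.55 and 31.05 RPKM, and at 30.45 and 27.03 RPKM, with the highest values where IL-21 was absent. Bcl2a1b was at 15.71 and 13.37 RPKM, at 12.15 and 6.627 RPKM, and at 11.02 and 25.36 RPKM, with log2 differences of -0.43 for IL-21 (edgeR adjusted p = 0.929) and 1.04 for the inhibitor against IL-21 (adjusted p = 0.419). Bcl2l1 lay between 1.784 and 13.76 RPKM and was not tested in this culture. Bax was between 107.1 and 149.1 RPKM in all 3 groups.

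The time course resolved when Bcl2 differed. At 0 h it was at 12.79 and 14.22 RPKM without IL-21 and at 14.84 and 16.24 RPKM in the group labelled with IL-21. At 6 h it was at 12.78 and 14.39 RPKM without IL-21 and at 4.456 and 4.329 RPKM with it, the lowest values of the time course. By 24 h the values were 18.41 and 16.34 RPKM without and 8.767 and 8.572 RPKM with IL-21, and by 72 h they were 27.91 and 22.91 RPKM without and 17.38 and 14.63 RPKM with it. With or without IL-21, the level at 72 h was above that at 24 h, and the groups with IL-21 lay below those without it at each of the 3 later times.

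Bcl2 fell by 1.67 with IL-21 at 6 h (log2, SE 0.183, 95% interval -2.07 to -1.27, edgeR adjusted p = 0.00169) and by 1.10 at 24 h (SE 0.18, edgeR adjusted p = 0.016). It was the only one of the 5 members tested to pass, where 1.97% and 1.66% of the 3503 genes tested did. At 72 h the difference was -0.74 (SE 0.179, 95% interval -1.13 to -0.34, edgeR adjusted p = 0.0271), which is less than 2-fold and so was not called, and no member was called where 8.08% of genes were. At 0 h it was 0.28 (edgeR adjusted p = 1), where no gene passed, 110 had an unadjusted p under 0.05 and DESeq2 called 0. ILC1 marker sums were also lower with IL-21, at 1374 and 1296 RPKM without and 638.1 and 678.9 RPKM with it at 6 h, and at 1555 and 1495 against 952.3 and 920.7 RPKM at 24 h. So were cNK marker sums, at 3515 and 3674 against 2577 and 2337 RPKM at 6 h and 4698 and 4783 against 2733 and 3061 RPKM at 24 h, and B cell marker sums, at 246 and 166.5 against 107.9 and 119.3 RPKM and then 156.6 and 152.4 against 91.4 and 79.06 RPKM. Klrb1c, in both the ILC1 and the cNK list, was the gene most like Bcl2 over the time course (r = 0.9755). The ILC1 and cNK sums are therefore not levels of other cells alone. Their part in the Bcl2 difference was not tested. The 6 h call was lost without IL-21 replicate 1 alone (log2 difference -1.73, adjusted p = 0.0524), and the 24 h call was lost whichever library of the 2 groups was left out (adjusted p = 0.0954 to 0.203).

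The difference between these effects was itself tested, in part by contrasts added after the values at each time were seen. The difference between the groups with and without IL-21 was more negative for Bcl2 at 6 h than at 0 h by 1.94 (log2 -1.94, SE 0.254, 95% interval -2.50 to -1.39, edgeR adjusted p = 0.0134), a contrast in which 0.114% of genes passed. This call was lost with a wider filter on low counts (filterByExpr, adjusted p = 0.284) and in 6 of 8 fits that left out 1 library. Between 72 h and 6 h the effect differed by 0.93 (SE 0.252, edgeR adjusted p = 0.0662, 4.17% of genes), between 24 h and 6 h by 0.56 (edgeR adjusted p = 1, no gene called) and between 72 h and 24 h by 0.37 (edgeR adjusted p = 0.471, 4.22% of genes). None of these 3 passed in edgeR, while DESeq2 gave 0.90 for the 72 h against 6 h difference with an adjusted p of 0.0017, which is under 2-fold. In edgeR the 72 h against 6 h difference did pass without replicate 1 at 72 h in the group without IL-21 (1.03, adjusted p = 0.0242) or in that with it (1.01, adjusted p = 0.0462), and the median of all genes in that contrast was 0.143. From 24 h to 72 h, Bcl2 rose by 1.26 with IL-21 (log2, SE 0.181, edgeR adjusted p = 0.00107), in every refit run, and was higher by 0.89 without it (SE 0.179, edgeR adjusted p = 0.00743, under 2-fold). In both contrasts, which share no library, 14.8% of genes passed. These differences come from fits with TMM scaling, whereas RPKM is scaled to the total count. In RPKM, Bcl2 with IL-21 was at 8.767 and 8.572 at 24 h and at 17.38 and 14.63 at 72 h. The means of these groups were less than 2-fold apart. Every refit used TMM or DESeq2 size factors, so whether the call holds with scaling to the total count was not tested. With IL-21, several marker sums were also higher at 72 h than at 24 h. The cNK and ILC1 lists share Ncr1 and Klrb1c with trNK cells, and the cNK list also shares Eomes. The study also reports Itgam, of the cNK list, and Tbx21, of the ILC1 list, in trNK cells. The sums of both lists are therefore not levels of other cells alone. They were at 5703 and 6746 against 2733 and 3061 RPKM for cNK, and at 1589 and 1255 against 952.3 and 920.7 RPKM for ILC1. T cell markers were at 182.6 and 170.2 against 78.25 and 88.38 RPKM. The part of these sums was not tested. Between 0, 6 and 24 h without IL-21 no member passed: from 6 h to 24 h the Bcl2 difference was 0.49 (edgeR adjusted p = 0.815), where 0.0856% of genes were called, and from 0 h to 6 h no gene was called, 106 had an unadjusted p under 0.05 and DESeq2 called 6.

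**Figure D4:**
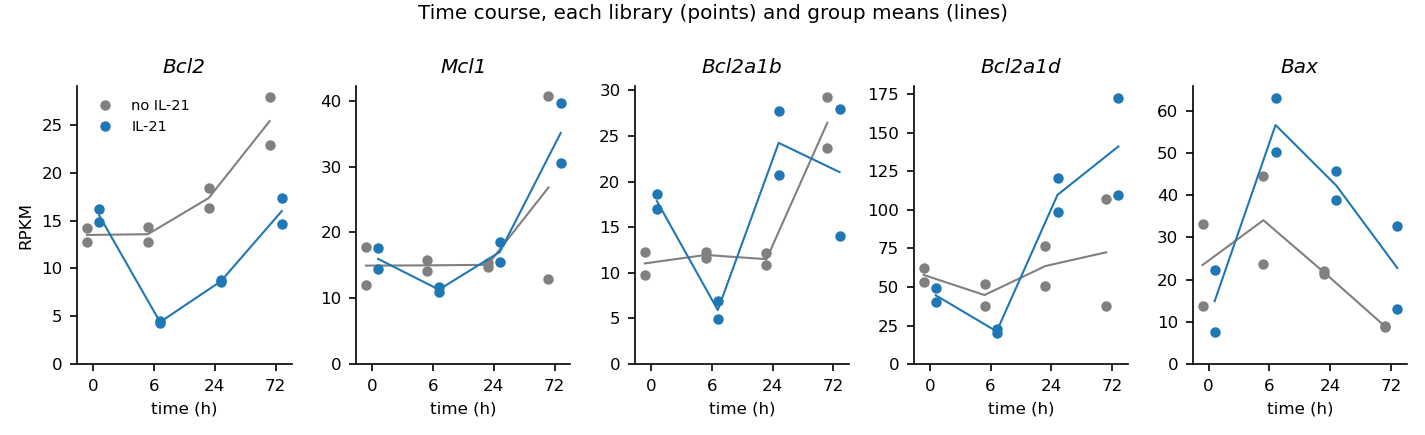
RPKM of the 5 tested members at 0, 6, 24 and 72 h without and with IL-21, one point per library and lines through the group means, with the times spaced evenly and not to scale. Bcl2 with IL-21 lies below Bcl2 without it from 6 h on, the libraries of Mcl1 and both A1 genes spread apart at 72 h, and Bax with IL-21 lies above Bax without it from 6 h on.

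The A1 genes showed lower values at 6 h with IL-21 and higher values at 24 h. Bcl2a1b was at 11.66 and 12.27 RPKM without and 4.958 and 6.876 RPKM with IL-21 at 6 h, and at 12.15 and 10.85 RPKM without and 20.72 and 27.78 RPKM with it at 24 h. Bcl2a1d was at 37.60 and 51.90 RPKM without and 22.49 and 19.83 RPKM with IL-21 at 6 h, and at 50.55 and 76.56 RPKM without and 98.49 and 120.9 RPKM with it at 24 h. In both genes the groups with and without IL-21 did not overlap at either time, but the share of all genes that did the same was not counted. None of these differences passed: for Bcl2a1b the log2 values were -1.06 at 6 h (edgeR adjusted p = 0.431) and 0.98 at 24 h (adjusted p = 0.389), and for Bcl2a1d they were -1.12 at 6 h (adjusted p = 0.35) and 0.69 at 24 h. The test of the Bcl2a1b difference between 24 h and 6 h gave 2.03 with an adjusted p of 1.

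At 72 h the libraries of a group diverged. Mcl1 was at 12.90 and 40.75 RPKM without IL-21 and at 39.71 and 30.48 RPKM with it. Bcl2a1d was at 107.2 and 37.70 RPKM without and at 109.5 and 172.6 RPKM with IL-21. Replicate 1 without IL-21 was low in Mcl1 and high in Bcl2a1d, and replicate 2 was the reverse. The IL-21 difference at 72 h was therefore called for Mcl1 without the latter library (1.52, edgeR adjusted p = 0.00761) and for Bcl2a1d without the former (1.86, adjusted p = 0.0178), but for neither with all libraries (0.24 for Mcl1, and 1.00 with an adjusted p of 0.214 for Bcl2a1d). The Mcl1 difference between 72 h and 24 h without IL-21 was 1.24 (log2, edgeR adjusted p = 0.0904), 1.81 without 72 h replicate 1 (adjusted p = 0.000357) and -0.03 without replicate 2 (adjusted p = 0.958). Genes of dividing cells moved over the same interval, with summed levels of 308.3 to 357.8 RPKM at 24 h, 7.142 and 0.5441 RPKM at 72 h without IL-21 and 69.96 and 35.11 RPKM at 72 h with it. Their part in the differences of the family members was not tested.

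Bax varied between the libraries of a group in the time course. It was at 33.27 and 13.65 RPKM at 0 h without IL-21 and at 22.29 and 7.542 RPKM in the 0 h group labelled with it. With IL-21 it was at 50.19 and 63.12 RPKM at 6 h, 45.71 and 38.83 RPKM at 24 h and 32.63 and 12.94 RPKM at 72 h, against 44.47 and 23.72, 21.28 and 22.12, and 8.905 and 8.944 RPKM without it. At each of these 3 times both IL-21 libraries lay above both without it, but the log2 differences of 0.71 at 6 h, 0.86 at 24 h and 1.20 at 72 h did not pass (edgeR adjusted p = 0.24 at 72 h). The Bcl2 to Bax ratio was 0.2874 and 0.6066 at 6 h without IL-21 against 0.08878 and 0.06858 with it, and 3.134 and 2.561 at 72 h without IL-21 against 0.5326 and 1.131 with it.

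The BH3-only genes Bbc3 and Pmaip1 and the effector Bak1 were low in most libraries, and none passed the filter of the test in any experiment. Without IL-21 in the inhibitor culture, the mean of Bbc3 was 9.846 RPKM and that of Bcl2l1 was 5.535 RPKM. The libraries overlapped, at 12.59 and 7.105 RPKM for Bbc3 and at 1.784 and 9.286 RPKM for Bcl2l1, and neither gene was tested there. Bbc3 (chr7:16308393-16318205, plus strand), whose product PUMA is a p53 target, ranged from 2.547 to 3.956 RPKM in gestation, from 0.7542 to 9.831 RPKM in the subsets, from 1.401 to 12.59 RPKM in the inhibitor culture and from 0 to 0.9232 RPKM in the time course. Bak1 (chr17:27019810-27029009, minus strand) stayed between 0 and 2.571 RPKM in all 34 libraries. This holds for the bulk libraries only, and the single cells described below differed. Pmaip1, on chromosome 18, was at 0.3031 and 0.3733 RPKM without IL-21 in the inhibitor culture, at 1.395 and 1.682 RPKM with IL-21 and at 3.340 and 2.742 RPKM with the inhibitor, so the 3 groups did not overlap at these low levels. In the time course it was at 0 counts in every library without IL-21. With IL-21 it was at 0.5472 and 0.8492 RPKM at 6 h, at 0.2060 and 0.4689 RPKM at 24 h, and at 0 counts in both libraries at 72 h. The 0 h libraries labelled with IL-21 had 0 and 1 counts. Over all experiments it was at 0 counts in 12 libraries. A count of 0 allows up to 3 counts, which is 0.01706 to 0.07347 RPKM in those libraries, and this limit covers counting error only. Bcl2l11 ranged from 2.031 to 11.36 RPKM in the time course and Bcl2l1 from 0 to 1.129 RPKM, and neither was tested there.

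Downstream of the family, the 20 genes of the apoptosome, caspases, inhibitors of apoptosis proteins and mitochondrial channels had 12 members tested in the subsets. The share of all genes called between trNK-T and trNK-V, 21.2%, is the background for the counts of these lists. Cycs, which encodes cytochrome c, went from 64.75 and 57.62 RPKM to 147.4 and 142.2 RPKM from trNK-V to trNK-T and rose by 1.25 (log2, SE 0.17, edgeR adjusted p = 0.00474). Casp6, an executioner caspase, fell by 1.05 (edgeR adjusted p = 0.0337). The median over the tested genes of this list was 0.57, beside -0.01 over all genes. The Cycs call held under every alternative run.

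Of the 12 death receptor genes, 7 were tested and 2 passed, a share near that background. Traf1 (-1.09, edgeR adjusted p = 0.0136) and the tumour necrosis factor receptor gene Tnfrsf1a (-1.68, adjusted p = 0.0383) fell from trNK-V to trNK-T, with a list median of -0.88 beside -0.01 over all genes. Of the 14 p53-response genes, 6 were tested and Trp53inp1 alone passed, again near the background, falling by 2.70 (edgeR adjusted p = 0.0264), with a log2 difference of -4.20 without trNK-T replicate 1. The Tnfrsf1a call was lost with any 1 library of the 2 groups left out, with a log2 difference of -1.03 without trNK-V replicate 1. The calls of Trp53inp1 and Casp6 were lost without trNK-V replicate 1, trNK-V replicate 2 or trNK-T replicate 2. That of Traf1 was lost without trNK-V replicate 2 or trNK-T replicate 2. None of the 16 other BCL2 family genes, of which 4 were tested, passed between the subsets, and no gene of the 4 lists passed in any gestation contrast, between trNK-D and trNK-V or between trNK-T and trNK-D.

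Of the 5 p53-response genes tested in the inhibitor culture, 2 rose with the inhibitor against no IL-21, where 4.74% of all genes passed, and the list median was 0.82 beside -0.02 over all genes. Cdkn1a, which encodes the cell cycle inhibitor p21, was at 38.62 and 27.43 RPKM without IL-21, at 86.38 and 75.81 RPKM with it and at 223.3 and 226.8 RPKM with IL-21 and Stattic. It rose by 3.06 between the first and last of these (log2, edgeR adjusted p = 0.00461), in every refit run. Mdm2, which encodes the ligase that degrades p53, rose by 1.89 (edgeR adjusted p = 0.0138), and Cflar, which encodes an inhibitor of caspase-8 activation, rose by 1.72 (adjusted p = 0.0343). Casp6 fell by 3.13 (adjusted p = 0.0117). The calls of Mdm2, Cflar and Casp6 were lost with any 1 library of the 2 groups left out. Against IL-21 alone, Cdkn1a rose by 1.57 (edgeR adjusted p = 0.0441) and Casp6 fell by 2.21 (adjusted p = 0.045), and both calls were lost in each such refit.

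In the time course, the family relative Bnip3l, a mitochondrial receptor for mitophagy, differed in the same direction as Bcl2. It was at 58.38 and 47.36 RPKM at 6 h without IL-21 and at 16.81 and 17.66 RPKM with it, and fell by 1.65 (log2, edgeR adjusted p = 0.00178), then by 1.05 at 24 h (adjusted p = 0.0203). The 24 h call was lost with any 1 library of the 2 groups left out, and the 6 h call without IL-21 replicate 1 (log2 -1.65, adjusted p = 0.0524). Of the channel genes, Vdac1 rose by 2.62 with IL-21 at 72 h (edgeR adjusted p = 0.0438), a call lost without IL-21 replicate 1 (log2 2.25, adjusted p = 0.125). Between 24 h and 72 h without IL-21, Birc5, which encodes survivin and is high in dividing cells, went from 200.8 and 170.1 RPKM to 5.113 and 0.02823 RPKM and fell by 5.95 (edgeR adjusted p = 0.00936). Vdac1 fell by 2.30 (edgeR adjusted p = 0.046), a call lost without either 24 h library. With IL-21 over that interval, Trp53inp1 rose by 2.97 (edgeR adjusted p = 0.00567), and Bnip3l and Bnip3 each rose by 1.05 (adjusted p = 0.00372 and 0.0369). Cdkn1a went from 7.642 and 3.501 RPKM to 0.4693 and 0 RPKM and fell by 4.35 (edgeR adjusted p = 0.0285), with a log2 difference of -3.43 without the 72 h library at 0 counts and -12.65 with that library alone at 72 h, so its size rests on that library. In the group without IL-21, leaving out 72 h replicate 1 gave a Birc5 difference of -12.28, and leaving out 72 h replicate 2 gave Vdac1 differences of 4.40 with IL-21 at 72 h and -4.07 between the times. Of the calls named here between 72 h and 24 h, only that of Birc5 held with each library left out in turn. In the interaction contrasts no gene of the 4 lists passed.

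Over the 16 time course libraries, the genes most like Bcl2 in log2(RPKM + 1) were Klrb1c (r = 0.9755), Zfp512 (r = 0.9504) and Phactr3 (r = 0.9438). Klrb1c encodes the NK1.1 antigen of the sort gate. For Bax, those named are Rer1 (0.9735) and Ccdc124 (0.9459), and Bcl2 and Bax ran opposite to each other, with r of -0.7883. The A1 genes had r of 0.6741 with each other although they share sequence. For Bcl2a1b the nearest genes were Tmsb4x (0.9329), Ubl5 (0.902) and Atp5l2-ps (0.8851), for Bcl2a1d they were Gm19585 (0.831), S100a11 (0.8246) and Gm20069 (0.7772), and for Mcl1 they were 3830406C13Rik (0.8553), Zfp322a (0.8532) and 1810044D09Rik (0.8161). These libraries share treatment groups, times and depth, and the correlations are a description across them.

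Single-cell RNA-Seq of uterine CD45+NK1.1+NKp46+ cells pooled 5 virgin uteri and 2 uteri at gd8.5, and the matrices used here do not map a cell to its pool, so they are 1 sample and allow no test between conditions. The 2 matrices hold the same 15175 cell barcodes with different genes and were joined by barcode. After the limits of 200 to 2500 UMIs and under 10% mitochondrial reads, 4338 of 15175 cells were left, and 3342 of them fell in clusters named from marker genes. The NK clusters were named by hand after they were seen. Of the 6 trNK markers, 5 were at least 3-fold above their level in B-like cells in the cluster called trNK-like with low Gzmc. This count was 6 in that with high Gzmc, 6 in the dividing one and 4 in the cNK-like one. Against all other cells, a fold limit lower than 3 was used for the NK lists. By that limit, the low-Gzmc cluster had 3 trNK and 3 cNK markers, the high-Gzmc cluster 2 trNK markers and the dividing cluster 1. The cNK-like cluster had 7 cNK and 4 trNK markers. The names of the NK clusters are therefore less firm than the others. The count against B-like cells was also 6 in an unnamed cluster of 220 cells. It was 5 in an unnamed one of 438 cells, which had 5 mast cell markers, and 4 in unnamed clusters of 208 and 71 cells. This count alone therefore does not set trNK cells apart from other cells. The clusters were made without the family members. Bcl2 had no column and was not analysed here. Values are CPM, the UMIs of a gene scaled to the summed UMIs of a class, with an exact 95% Poisson interval that covers counting error only. Cells with B cell, macrophage, T cell and erythroid markers were present although the gate should remove them, and RNA from other cells in the droplet or well can add UMIs to any class.

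**Figure D5:**
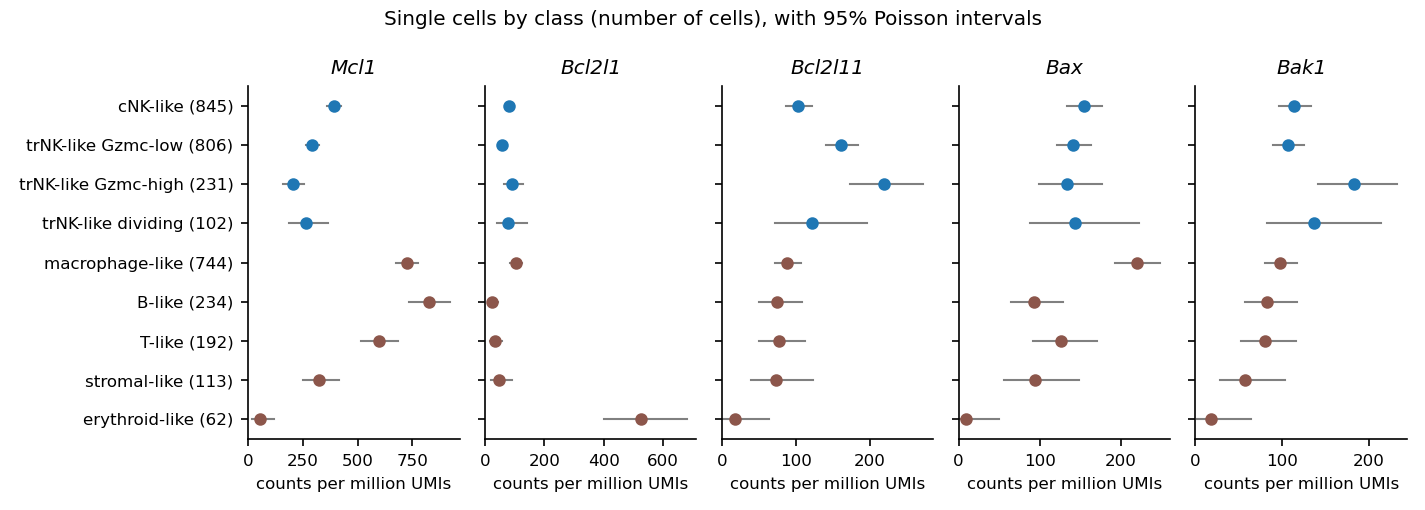
CPM of 5 members (panels) in each named class (rows, with the number of cells), with exact 95% Poisson intervals as lines. Mcl1 is lower in Gzmc-low and Gzmc-high trNK-like cells than in cNK-like cells, Bcl2l11 is higher in them, and Bcl2l1 stands out in erythroid-like cells.

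With the limits on UMIs, Mcl1 and Bcl2l11 ran in opposite orders over cNK-like, Gzmc-low and Gzmc-high trNK-like cells. Mcl1 was at 390.9 CPM (358.5 to 425.5) in 845 cNK-like cells, at 294.1 CPM (265.7 to 324.7) in trNK-like cells with low Gzmc and at 204.8 CPM (161.1 to 256.7) in 231 trNK-like cells with high Gzmc, and none of these 3 intervals overlapped. In the 102 dividing trNK-like cells, the intervals of both genes overlapped those of cNK-like cells, with Mcl1 at 266.4 CPM (187.6 to 367.2) and Bcl2l11 at 122.4 CPM (71.31 to 196). Bcl2l11 was at 103 CPM (86.72 to 121.5) in cNK-like cells, at 160.9 CPM (140.1 to 183.9) in Gzmc-low and at 218.5 CPM (173.2 to 271.9) in Gzmc-high trNK-like cells. Its Gzmc-low and Gzmc-high intervals overlapped. The unnamed cluster of 220 cells, at a median of 744 UMIs, had as many trNK markers above B-like cells as the Gzmc-high cluster. Bcl2l11 was at 98.98 CPM (61.27 to 151.3) there, near its cNK-like level, and Mcl1 was at 150.8 CPM (103.2 to 212.9). The upper limit on UMIs left the 231 Gzmc-high cells at a median of 1583 UMIs, where limits on genes kept 1156 cells at a median of 5050.5 UMIs. The order of Bcl2l11 in cNK-like below Gzmc-low and Gzmc-high cells held in each choice of cells that gave all 3 classes, but the order of the latter did not: with limits on genes instead of UMIs, Bcl2l11 was at 215.6 CPM in Gzmc-low and 176 CPM in Gzmc-high cells, and with no upper limit it was at 203 and 162.4 CPM. The descending order of Mcl1 was kept in those choices.

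Among the effectors, Bak1 was at 183 CPM (141.8 to 232.3) in Gzmc-high cells, above its 106.3 CPM (89.51 to 125.3) in Gzmc-low and 114 CPM (96.8 to 133.3) in cNK-like cells. Bax did not separate these classes, with 133.8 CPM (98.99 to 176.9), 141.4 CPM (122 to 163.1) and 154.2 CPM (134.1 to 176.4) in the same order. Bak1 was therefore not low beside Bax in these single-cell classes. In the bulk libraries Bak1 was never above 2.571 RPKM and Bax never below 7.542 RPKM. The cause of this difference between bulk and single cells was not tested. Bcl2l1 was at 92.84 CPM (64.3 to 129.7), 56.13 CPM (44.15 to 70.36) and 81.84 CPM (67.39 to 98.47). The order of Gzmc-high and Gzmc-low cells depended on the choice of cells. With limits on genes Bcl2l1 was at 65.94 and 69.02 CPM in them, and with no upper limit at 71.71 and 65.06 CPM. It was at 525.7 CPM (400.2 to 678.1) in 62 erythroid-like cells, where BCL-XL is known as the main survival protein. Bbc3 and Pmaip1 were low in NK cells, and Pmaip1 was at 32.15 CPM (23.36 to 43.16) in cNK-like and 5.987 CPM (2.585 to 11.8) in Gzmc-low trNK-like cells.

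The A1 genes had few UMIs in NK cells. In bulk, by contrast, Bcl2a1d led the pro-survival genes in most time course libraries, and the cause of this difference was not tested. Bcl2a1b was at 7.484 CPM in Gzmc-low trNK-like and 6.576 CPM in cNK-like cells, against 47.46 CPM (35.65 to 61.92) in 744 macrophage-like cells, and Bcl2a1d was at 11.97, 8.768 and 53.61 CPM (41.01 to 68.86). Mcl1 was above its NK levels in macrophage-like and B-like cells and below them in erythroid-like cells, at 723.3 CPM (674.7 to 774.4) in macrophage-like and 824.8 CPM (736.8 to 920.5) in 234 B-like cells, and at 53.46 CPM in the erythroid-like cells.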

How the data were processed

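Per the labels, the authors aligned bulk RNA-Seq reads to mm10 with HISAT2 2.1.0 and counted them per gene with featureCounts (Subread), and the deposited values are raw read counts per gene. The single-cell values the authors deposited are UMI counts (BD Rhapsody). From these counts RPKM was computed with the deposited gene lengths and the total count. Each experiment was fitted on its own. A gene entered when both libraries of at least 1 group exceeded 10 RPKM, and the fit used TMM scaling, all groups of the experiment and the quasi-likelihood test of edgeR 4.0.16 in R 4.3.3, with Benjamini-Hochberg adjustment. A call needed an adjusted p under 0.05 and a change of more than 2-fold. The fits were tested on simulated data. The test was applied in 18 planned comparisons and 3 differences of the IL-21 effect added after the values were seen. Total counts of 11862089 to 66468883 set the counting error.

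The 10 members are the named genes, untested ones by their range. Of 4 further lists (other family members, apoptosome and caspases, death receptors, p53 response) the genes called in a comparison were named, together with the 3 genes most correlated with each tested time course member. The members and lists were chosen with earlier results of these data known. Single cells were clustered with scanpy 1.11.5 and leidenalg 0.10.2 at a resolution of 0.8. Clusters other than NK cells needed 3 markers of a class, each with at least 10 UMIs and 3-fold above the other cells. The trNK-like clusters do not all meet this and were named by hand from trNK markers at least 3-fold above their level in B-like cells. Some unnamed clusters reached the same count. Thresholds and names were set after the clusters were seen. Scrublet marked 0 cells as doublets, and whether it missed any was not tested. No doublets were removed, so some may remain. Alternatives were DESeq2 1.42.0, its size factors in edgeR, a filterByExpr filter, a replicate block, and each library left out. Sequences are from RefSeq on GRCm38.p6, the assembly of mm10. ATAC-Seq was not used here, and some genes that the naming rule selects are not reported here.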

Additional observations from a re-analysis of the deposited data

Results flagged for a closer look

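The Bcl2 difference between the groups labelled with and without IL-21 was not the same at 6 h and 0 h of culture. It was more negative at 6 h, by a log2 value of -1.94 (SE 0.254, edgeR adjusted p = 0.0134). This contrast was added after the values at each time were seen. Whether the 0 h cells labelled with IL-21 met it is not stated, so the 0 h difference may not be an effect of IL-21. Both libraries with IL-21 lay below both without it at 6 h, and both lay above them at 0 h. The call was lost with the filterByExpr filter (log2 -1.81, adjusted p = 0.284) and in 6 of the 8 fits that left out 1 library, where the difference stayed between -2.15 and -1.79.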

How the results depend on the processing

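No called member changed direction under any alternative run. With the filterByExpr filter, which tests more genes, 0 members were called for gd6.5 against virgin (3 in the reported fit), 1 for trNK-T against trNK-V (2 reported), and 0 for inhibitor against no IL-21, for IL-21 at 24 h and for the 6 h against 0 h difference of IL-21 effects (1 reported in each). DESeq2 called 1 member for gd8.5 against gd6.5 (Bcl2a1d), for trNK-T against trNK-D (Bcl2), for IL-21 in the inhibitor culture (Bcl2) and for the 72 h against 6 h difference of effects (Bcl2a1d), where 0 were reported. It called 2 for 72 h against 24 h without IL-21 (Bcl2a1b and Mcl1, 0 reported) and 2 with IL-21 (Bcl2 and Mcl1, 1 reported). Over all genes, DESeq2 called 221, 326, 162, 345, 695 and 671 in these contrasts in turn, against 0, 82, 12, 146, 518 and 518 as reported. DESeq2 size factors in edgeR called 1 for 72 h against 24 h without IL-21 (Bcl2a1b). The cause of these differences was not tested. Leaving out 1 library, which assumes that the lone library of a group varies like the others, gave 0 to 4 members for gd6.5 against virgin, 1 to 2 for trNK-T against trNK-V, 0 to 0 for inhibitor against no IL-21, 0 to 1 for IL-21 at 6 h, 0 to 0 at 24 h, 0 to 1 at 72 h, 0 to 2 for 72 h against 24 h without IL-21, 1 to 1 with IL-21, and 0 to 1, 0 to 1, 0 to 0 and 0 to 2 for the differences of effects (72 h against 24 h, 6 h against 0 h, 24 h against 6 h and 72 h against 6 h).

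Libraries of the same number did not deviate together in every pair of groups, so the numbers were not taken to pair them. Correlations were -0.337 to 0.407 over 28 pairs in the time course. Over 3 pairs each, they were -0.308 to 0.11 in gestation, -0.008 to 0.387 in the subsets and -0.431 to 0.54 in the inhibitor culture. In the subsets 2 of these pairs were above 0.1. With a replicate block, 0 members were called for gd6.5 against virgin and for inhibitor against no IL-21, 1 for trNK-T against trNK-D (Bcl2) and 1 for 72 h against 24 h without IL-21 (Bcl2a1b). Of the pathway genes named, the block ended the calls of Vdac1 (IL-21 at 72 h, and 72 h against 24 h without IL-21), of Cdkn1a and Casp6 for inhibitor against IL-21, and of Mdm2 and Cflar for inhibitor against no IL-21. The filterByExpr filter ended these calls too, except that of Vdac1 for IL-21 at 72 h, and those of Traf1, Trp53inp1, Tnfrsf1a and Casp6 for trNK-T against trNK-V, of Casp6 for inhibitor against no IL-21, of Bnip3l for IL-21 at 24 h, and of Bnip3l, Bnip3 and Cdkn1a for 72 h against 24 h with IL-21.

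Calls over all genes moved as well. For gd6.5 against virgin they were 280 as reported, 5 with filterByExpr, 462 with DESeq2, 2 with the block and 0 to 907 with 1 library left out. For IL-21 at 6 h they were 69, 10, 127, 57 and 0 to 19, and for IL-21 at 72 h 283, 755, 475, 253 and 242 to 1029. Single-cell levels stayed within the reported interval in 71 of 81 values with gene limits, 61 of 72 with no upper limit and 72 of 72 at a resolution of 0.4. Bbc3, Pmaip1 and Bak1 were left out of the reported fit by the limit of 10 RPKM. With filterByExpr they were tested and none was called.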

Other observations

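The time course was made with another library kit than the inhibitor culture, and the levels of the members at 72 h without IL-21 differed between these experiments. On the scale of log2(RPKM + 1), the time course minus the inhibitor culture was -3.061 for Bbc3 (63.75% G and C in its exons), -3.604 for Bax (58.69%), -0.544 for Bak1 (57.08%), -2.491 for Bcl2l1 (53.92%) and -0.747 for Mcl1 (48.68%). It was -1.478 for Bcl2l11 (46.94%), -1.918 for Bcl2 (44.9%), 2.025 for Bcl2a1d (44.61%), 0.822 for Bcl2a1b (44.06%) and -0.42 for Pmaip1 (41.76%). The members did not follow their G and C share in order, and Bak1 and Pmaip1 were near 0 in both. The same difference was taken over 3655 genes, chosen because both inhibitor culture libraries without IL-21 exceeded the RPKM limit of the fits. In 4 bins of equal size, its median was -0.417, -0.991, -1.54 and -2.238 from the bin lowest to the bin highest in G and C. Choosing genes by their level in the inhibitor culture alone favours values below 0. The sign and size of these medians therefore do not measure a difference between the experiments, and only their order over the bins is described. The kit and the culture cannot be told apart.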
